A study of Homo sapiens with 4 samples.

Results

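FKBP5, PMEPA1, SLC45A3 and NDRG1 are genes whose transcription rises with androgen in prostate cells, and they are described here by the lamin B1 signal over each gene and over 1 Mb on either side of it. The members are the bins of the hg19 genome build that overlap these 4 windows. They are 40 kb wide, except for entries of 80 kb and 120 kb in the SLC45A3 window. They number 209, of 71569 bins with a value in both cell lines, and a bin belongs to them by its position and not by its value. In hg19, FKBP5 spans 35541000 to 35697000 of chromosome 6 and PMEPA1 spans 56223000 to 56287000 of chromosome 20. SLC45A3 spans 205626000 to 205650000 of chromosome 1, and NDRG1 spans 134249000 to 134310000 of chromosome 8. The windows hold 55 bins for FKBP5, 53 for PMEPA1, 49 for SLC45A3 and 52 for NDRG1. The genes themselves overlap 5, 3, 2 and 2 bins, in the same order.

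Lamin B1 chromatin immunoprecipitation and sequencing (ChIP-seq) was carried out in LNCaP, an established line labelled as prostate adenocarcinoma, and in VCaP, an established line labelled as bone metastatic prostate cancer. Each line had 1 library with lamin B1 antibody and 1 input library without antibody, so there are 4 groups of 1 library. Both lines were fixed while growing in serum, in different media, and the labels name no androgen treatment, genotype or passage. RNA was not measured in these libraries, so nothing below says how strongly the genes were transcribed. With 1 library pair per line no value has a replicate, and no test could be made. Differences are set against the noise between bins of the same libraries, and they are differences of the libraries, not of the lines as such.

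Lamin B1 forms part of the nuclear lamina, the protein mesh under the inner nuclear membrane. Chromatin that touches the lamina lies in long domains that are usually poor in genes and low in transcription, while active genes tend to lie away from it. Androgen acts through the androgen receptor, a nuclear receptor that binds enhancers and promoters of its target genes, and both lines are widely used because they carry this receptor. FKBP5 encodes a co-chaperone of HSP90 that takes part in steroid receptor folding. PMEPA1 encodes a membrane protein that dampens TGF-beta signalling and binds NEDD4-type ubiquitin ligases. SLC45A3 encodes prostein, a transporter family protein found mainly in prostate epithelium, and its first exons are a known fusion partner of ETS genes in prostate cancer. NDRG1 encodes a cytoplasmic protein induced by stress, hypoxia and differentiation as well as by androgen.

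All 4 genes are read from the minus strand, so the 5′ end of each is its higher coordinate. The RefSeq promoter table of build GRCh38.p14 held start sites for 3 of the 4 genes, and NDRG1 had no entry. The sequences below are shown because the lamin B1 signal dips beside or within these genes. They run from 250 bases before to 50 bases after a start site, 5′ to 3′ on the minus strand. The GRCh38.p14 positions given with them are not comparable with the hg19 positions of the bins. Capitals mark AGAACA, the half-site of the androgen response element, and GGGCGG, a GC box, each on either strand. The sequences are the outermost start of FKBP5 (chr6:35728534-35728833), a second FKBP5 start 39.7 kb further into the gene (chr6:35688866-35689165), the outermost start of PMEPA1 (chr20:57711423-57711722) and the start of SLC45A3 (chr1:205680460-205680759).
FKBP5 outermost start: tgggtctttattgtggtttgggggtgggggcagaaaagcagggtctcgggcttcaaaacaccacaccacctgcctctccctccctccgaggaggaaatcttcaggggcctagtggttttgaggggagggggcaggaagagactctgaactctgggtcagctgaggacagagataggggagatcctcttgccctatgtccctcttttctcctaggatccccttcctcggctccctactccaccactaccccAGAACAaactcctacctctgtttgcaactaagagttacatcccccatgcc
FKBP5 second start: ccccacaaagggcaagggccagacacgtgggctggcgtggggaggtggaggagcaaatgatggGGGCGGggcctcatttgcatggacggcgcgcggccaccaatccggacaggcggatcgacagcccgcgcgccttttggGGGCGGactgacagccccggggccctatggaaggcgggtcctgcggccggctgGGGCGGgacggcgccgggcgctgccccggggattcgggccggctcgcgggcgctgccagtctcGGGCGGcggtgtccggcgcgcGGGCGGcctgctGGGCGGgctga
PMEPA1 outermost start: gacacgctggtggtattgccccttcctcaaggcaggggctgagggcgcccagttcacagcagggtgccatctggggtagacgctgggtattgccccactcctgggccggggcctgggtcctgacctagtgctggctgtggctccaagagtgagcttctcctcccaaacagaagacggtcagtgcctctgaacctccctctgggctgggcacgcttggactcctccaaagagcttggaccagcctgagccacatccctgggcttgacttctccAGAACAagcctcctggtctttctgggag
SLC45A3 start: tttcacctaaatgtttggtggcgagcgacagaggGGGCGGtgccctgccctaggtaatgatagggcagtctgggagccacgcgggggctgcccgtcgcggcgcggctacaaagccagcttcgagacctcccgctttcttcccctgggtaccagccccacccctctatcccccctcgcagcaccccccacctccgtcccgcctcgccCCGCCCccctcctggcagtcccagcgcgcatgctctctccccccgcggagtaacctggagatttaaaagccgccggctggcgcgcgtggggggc

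The table held 7 start windows for the 3 genes, and 3 of them held the half-site AGAACA. It occurred once at the outermost start of FKBP5, once at that of PMEPA1 and once at the second PMEPA1 start, which is not printed above. It was not found in the second FKBP5 window or in that of SLC45A3. Of all 35116 promoter windows of the table, 14.8% hold it. The full palindrome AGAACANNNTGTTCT was in none of the windows of the 3 genes and in 1 of the 35116. GGGCGG occurred 6 times in the second FKBP5 window and 2 times in that of SLC45A3. Of the PMEPA1 windows not printed, the second held GGGCGG 1 time and the third, with a GC content of 75.3%, 2 times. In all, 4 of the 7 windows held it, as do 45.0% of all windows. The windows also differed in GC content, at 55.7% for the outermost FKBP5 start, 76.0% for the second, 62.0% for the outermost PMEPA1 start and 69.0% for SLC45A3, against a median of 58.7% over all windows. Androgen receptor binding was not measured here, and a match of letters is not a binding site.

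Each deposited value is a log2 ratio of ChIP over input, and each bin also carries 1 of 2 states of the authors' hidden Markov model. The state with the higher enrichment, labelled AD, is called associated below. Over all bins of the series it held 37.8% of LNCaP bins and 44.4% of VCaP bins. The median log2 enrichment over common bins was 0.06 in LNCaP and 0.19 in VCaP. From bins 3 apart, a single LNCaP bin had a noise SD of 0.15 and a single VCaP bin one of 0.23. Together they give 0.27 for a difference between the lines. A difference of more than 2 noise SDs, or 0.54, is called beyond noise. The deposited values behave as a mean of 3 entries of the table, which places the signal about 40 kb towards higher coordinates, so results at the scale of a gene are also given with that mean undone.

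The windows fell into 2 kinds. Around FKBP5, PMEPA1 and NDRG1, LNCaP had 0 associated bins, whereas VCaP had 40 of 55, 50 of 53 and 38 of 52. Around SLC45A3 both lines were largely associated, with 36 of 49 bins in LNCaP and 38 of 49 in VCaP. Of the 209 bins together, 131 (62.7%) were associated in VCaP only, against 23.8% of all common bins. Another 35 bins were associated in both lines (20.6% of all common bins are), all of them around SLC45A3. Only 1 bin was associated in LNCaP only (17.2% of all common bins), and 42 were associated in neither line (38.4%). The bins of a window are neighbours and share averaged values, so these counts stand for 4 regions and not for 209 separate measurements. On the chromosome of PMEPA1, 72.8% of common bins were associated in VCaP and 18.2% in LNCaP. In the same order of lines, the shares were 30.3% and 44.6% for that of FKBP5 and 47.4% and 37.5% for that of NDRG1. They were 45.1% and 53.7% for that of SLC45A3.

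**Figure D1:**
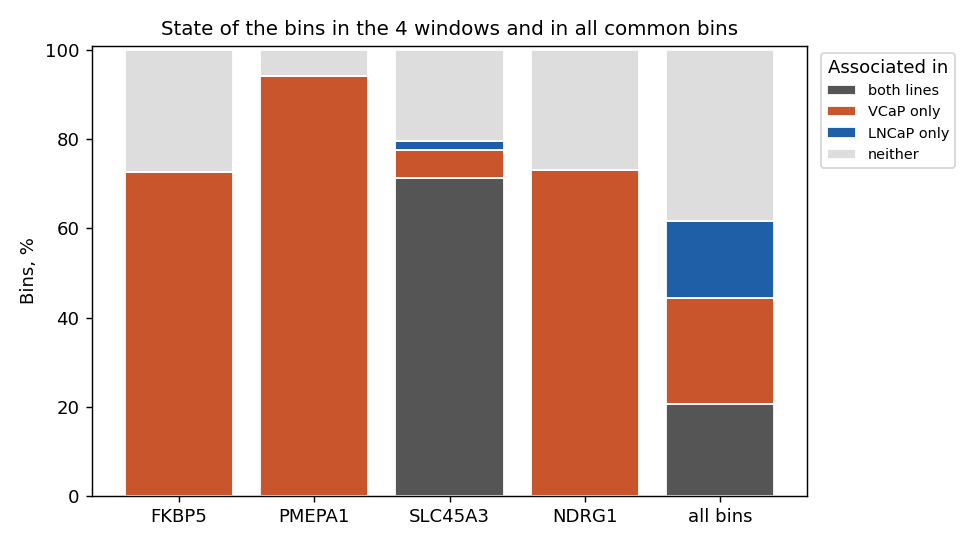
Share of bins (vertical axis, percent) associated in both lines, in VCaP only, in LNCaP only or in neither, in each of the 4 windows and in all 71569 common bins. VCaP-only bins fill most of the FKBP5, PMEPA1 and NDRG1 windows, while 35 of the 49 SLC45A3 bins are associated in both lines.

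The LNCaP gaps around 3 of the genes were long. The stretch without an associated bin that holds the FKBP5 5′ end ran for 115 bins, from 32840001 to 37440000. That around PMEPA1 ran for 102 bins, from 54920001 to 59000000, and that around NDRG1 for 103 bins, from 132840001 to 136960000. The nearest associated LNCaP bin lay 1743 kb from FKBP5, 1303 kb from PMEPA1 and 1409 kb from NDRG1, but 66 kb from SLC45A3. In VCaP, counted from the 3′ end, 1 of the 5 bins of FKBP5, 2 of the 3 of PMEPA1 and 1 of the 2 of NDRG1 were associated. The nearest associated VCaP bin to SLC45A3 again lay at 66 kb. With the 3-entry mean undone, the associated gene bins were at 0.24 for FKBP5, 0.07 and -0.40 for PMEPA1 and -0.45 for NDRG1. The states have no undone form, so the borders of these stretches carry the shift of the averaged values.

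VCaP values exceeded LNCaP values in 194 of the 209 bins, against 58.1% of all common bins. They were higher beyond noise in 97 (46.4%), against 19.0% of all common bins, and LNCaP was higher beyond noise in 0 bins, against 7.81%. By window, VCaP was higher beyond noise in 39 of 53 bins around PMEPA1, 36 of 52 around NDRG1, 18 of 55 around FKBP5 and 4 of 49 around SLC45A3. The chromosomes of the genes differ between the lines as well. The difference of chromosome medians, VCaP minus LNCaP, was 0.48 for that of PMEPA1, 0.21 for that of NDRG1, 0.03 for that of SLC45A3 and -0.04 for that of FKBP5. The mean difference over the flanks of each gene was 0.70 ± 0.07 (noise SD) for PMEPA1, 0.75 ± 0.07 for NDRG1, 0.21 ± 0.07 for SLC45A3 and 0.49 ± 0.07 for FKBP5. Relative to its chromosome the flank difference was thus 0.54 larger for NDRG1, 0.53 for FKBP5, 0.21 for PMEPA1 and 0.18 for SLC45A3.

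**Figure D2:**
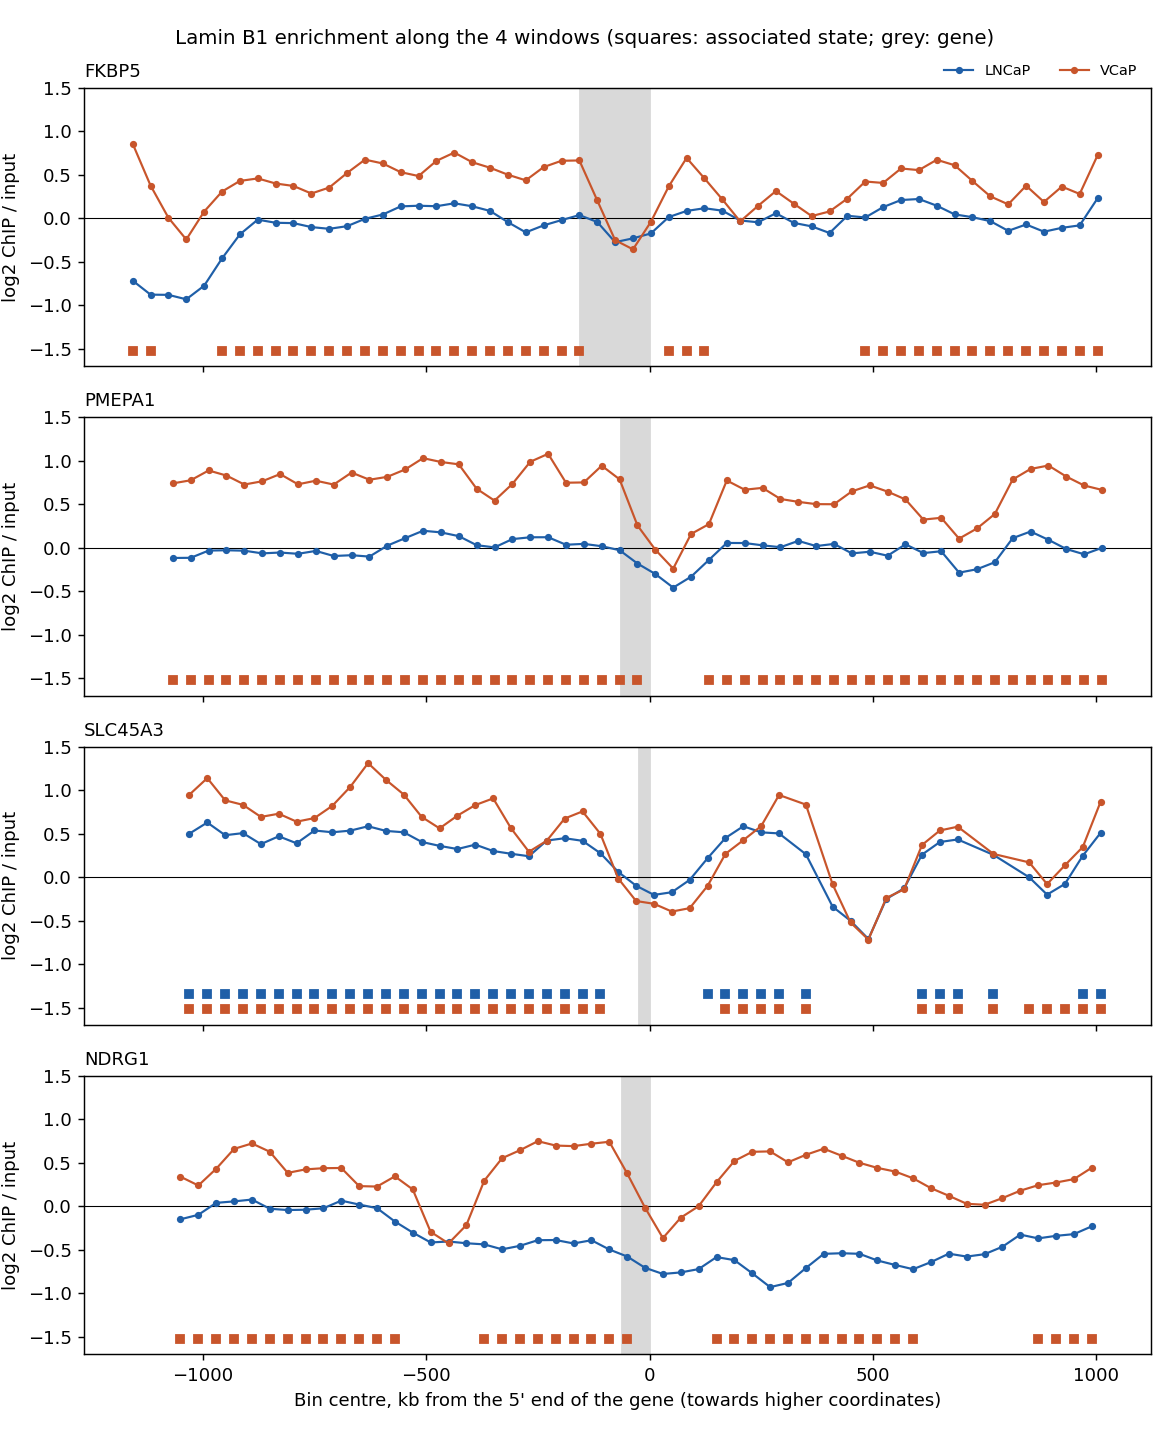
Deposited log2 ratio of ChIP over input (vertical axis) in each bin of the 4 windows, by distance of the bin centre from the 5′ end of the gene in kb, in LNCaP (blue) and VCaP (orange). Squares mark associated bins and grey the gene. The lines run apart around PMEPA1 and NDRG1 and close together around SLC45A3, and the VCaP curve dips at or beside every gene.

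FKBP5 had the longest gene body and an uneven signal along it. In LNCaP its 5 bins, from the 3′ to the 5′ end, had log2 enrichments of 0.04, -0.04, -0.27, -0.23 and -0.17. In VCaP they were 0.67, 0.21, -0.25, -0.36 and -0.04. The bin at the 3′ end was thus associated in VCaP and lay 0.63 above LNCaP, while the lines lay within 0.13 of each other in the 3 bins nearest the 5′ end. This contrast of the ends was not seen with the 3-entry mean undone. The 3′ bin was then at -0.08 in LNCaP and 0.24 in VCaP, and the 5′ end bin at 0.05 and 0.55. The gene mean was -0.14 ± 0.12 (noise SD) in LNCaP and 0.05 ± 0.17 in VCaP. The difference of 0.18 ± 0.21 was within noise.

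The flanks of FKBP5 were higher than the gene in VCaP. There the mean over 50 flank bins was 0.40, and the gene lay 0.36 below it, with a noise SD of 0.18, just short of 2 noise SDs. With the 3-entry mean undone the gene lay 0.47 below its flanks. In LNCaP the flank mean was -0.09, and the gene lay 0.05 below it with a noise SD of 0.12. Against 2 Mb of flank it lay 0.01 above, so no direction holds there. The non-associated stretch over the gene spanned 4 VCaP bins, from 35560001 to 35720000, and the window held 2 more, of 3 bins from 34600001 to 34720000 and of 8 bins from 35840001 to 36160000. The lowest VCaP bin of the whole window, at -0.36, was the gene bin from 35640001 to 35680000. In LNCaP the lowest stretch lay elsewhere, at the far end of the window, with -0.93 in the bin from 34640001 to 34680000. TULP1 and TEAD3 are the next protein-coding genes on the 3′ side of FKBP5, and ARMC12 and CLPSL2 on its 5′ side, by their order in the RefSeq table.

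PMEPA1 lay at the edge of a dip in strongly associated VCaP chromatin. Its 3 bins, from the 3′ to the 5′ end, had log2 enrichments of 0.79, 0.26 and -0.02 in VCaP and of -0.03, -0.18 and -0.30 in LNCaP. The deposited values of both lines fell along the gene towards its 5′ end. Undone, the VCaP bins were 0.07, -0.40 and 0.26, so this fall holds for the averaged values only. In the deposited values the minimum of the window in both lines was the bin just beyond the 5′ end bin, from 56320001 to 56360000, at -0.24 in VCaP and -0.46 in LNCaP. The gene mean was 0.34 ± 0.23 (noise SD) in VCaP and -0.17 ± 0.15 in LNCaP. The difference of 0.51 had a noise SD of 0.27 and stayed within 2 noise SDs. With the noise taken from the differences themselves, it was 2.58 noise SDs. With the 3-entry mean undone the VCaP mean of the gene was -0.02, and the difference fell to 0.28 ± 0.19.

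PMEPA1 stood out more from its surroundings once the average was undone. In VCaP the flank mean was 0.68, with 0.82 on the 3′ side and 0.53 on the 5′ side. The gene lay 0.34 below the flanks as deposited (noise SD 0.23) and 0.72 below them with the mean undone. In LNCaP the flank mean was -0.02, and the gene lay 0.15 below it (noise SD 0.15) as deposited and 0.29 below it with the mean undone. The 3 bins from 56280001 to 56400000 were the only ones of the VCaP window outside the associated state. The nearest protein-coding genes by order are ZBP1 and PCK1 on the 3′ side and CIMIP1 and ANKRD60 on the 5′ side. Across the 53 bins the lines had a Pearson r of 0.80 although their levels differed, which is given as a description because neighbouring bins share averaged entries.

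SLC45A3 lay in a short gap between associated domains in both lines. Its 2 bins had log2 enrichments of -0.10 and -0.21 in LNCaP and of -0.28 and -0.31 in VCaP. The gene mean was -0.15 ± 0.15 (noise SD) in LNCaP and -0.29 ± 0.23 in VCaP, and the difference of -0.14 ± 0.27 was within noise. With the 3-entry mean undone the difference was 0.03, so its sign is not settled. The gap spanned 5 bins in LNCaP, from 205560001 to 205760000, and 6 bins in VCaP, from 205560001 to 205800000. Both gaps began at the same bin.

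On either side of SLC45A3 the signal was high. In LNCaP the 25 bins on the 3′ side had a mean of 0.42, with 24 associated, and in VCaP a mean of 0.74, also with 24 associated. The 22 bins on the 5′ side averaged 0.10 in LNCaP and 0.17 in VCaP. The gene lay 0.42 below its flanks in LNCaP (noise SD 0.15) and 0.77 below them in VCaP (noise SD 0.23). With the mean undone it lay 0.40 below them in LNCaP (noise SD 0.13) and 0.57 below them in VCaP (noise SD 0.19). In the deposited values SLC45A3 alone of the 4 genes lay over 2 noise SDs below its flanks. With the mean undone PMEPA1 and NDRG1 did so in both lines and FKBP5 did so in VCaP. The undone noise SD counts every bin as a separate value and covers the gene mean only, and it was smaller. PMEPA1 in LNCaP, at 0.29 below with the mean undone, stayed within 2 of its deposited noise SDs of 0.15. ELK4, which forms known read-through and fusion transcripts with SLC45A3, and SLC60A1 are the nearest protein-coding genes on the 3′ side by order, and NUCKS1 and RAB29 on the 5′ side. In the deposited values a deeper minimum lay on the 5′ side, in the bin from 206120001 to 206160000, at -0.71 in LNCaP and -0.72 in VCaP. With the mean undone that bin was at -0.63 and -0.58. The lowest undone value was then in the bin from 206040001 to 206080000, at -1.43 in LNCaP and -1.45 in VCaP. The stretch that holds both bins, 5 bins long and outside the associated state in both lines, directly follows an entry 80 kb wide. That entry was at 0.0011 in LNCaP and 0.0066 in VCaP with the mean undone, and why it is wide is not known here. The profiles of the lines followed each other closely in this window, with a Pearson r of 0.90 across 49 bins.

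NDRG1 had the largest difference between the lines of the 4 genes in the deposited values. Its 2 bins had log2 enrichments of -0.58 and -0.71 in LNCaP and of 0.38 and -0.02 in VCaP, so VCaP was higher in both bins. The gene mean was -0.64 ± 0.15 (noise SD) in LNCaP and 0.18 ± 0.23 in VCaP. The difference of 0.82 had a noise SD of 0.27, and NDRG1 was the only 1 of the 4 genes beyond 2 noise SDs. Among the single common bins of the series, 91.9% had a smaller difference. With the 3-entry mean undone both lines were negative over the gene, at -0.73 in LNCaP and -0.32 in VCaP. The difference then fell to 0.41 ± 0.23 and was no longer beyond 2 noise SDs.

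The low LNCaP signal was not limited to NDRG1 itself. Up to position 133720000 the 12 LNCaP bins of the window ranged from -0.15 to 0.08 with a median of -0.02. In the 40 bins from 133720001 to 135320000 every LNCaP value was below 0, from -0.93 to -0.17 with a median of -0.54, and this split was chosen after the values were seen. The VCaP medians of the same stretches were 0.43 and 0.33. In VCaP the gene lay in one of 3 dips of the window, and its non-associated stretch ran over 4 bins, from 134280001 to 134440000. The others spanned 4 bins from 133760001 to 133920000 and 6 bins from 134920001 to 135160000. The gene lay 0.17 below its flanks in VCaP (noise SD 0.23) as deposited and 0.69 below them with the mean undone. In LNCaP it lay 0.24 below its flanks (noise SD 0.15) and 0.33 below them with the mean undone. Pearson r between the lines was 0.17 across 52 bins. By order, CCN4 and SLA are the nearest protein-coding genes on the 3′ side and ST3GAL1 and ZFAT on the 5′ side.

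The order of the gene means differed between the lines in the deposited values. In LNCaP, FKBP5, SLC45A3 and PMEPA1 lay between -0.14 and -0.17, closer together than their noise, and NDRG1 lay lowest at -0.64. Among all LNCaP runs of 2 adjacent bins, the mean of NDRG1 stood at the 2.33 percentile. In VCaP the order from the top was PMEPA1 (0.34), NDRG1 (0.18), FKBP5 (0.05) and SLC45A3 (-0.29). Undoing the 3-entry mean put NDRG1 lowest in both lines, at -0.73 in LNCaP and -0.32 in VCaP, and SLC45A3 was at -0.13 and -0.10. In the deposited VCaP values neighbours in this order differed by no more than 2 noise SDs. Ranked among all VCaP runs of as many adjacent bins, the gene means stood at the 63.2 percentile for PMEPA1, 49.2 for NDRG1, 36.3 for FKBP5 and 13.4 for SLC45A3.

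**Figure D3:**
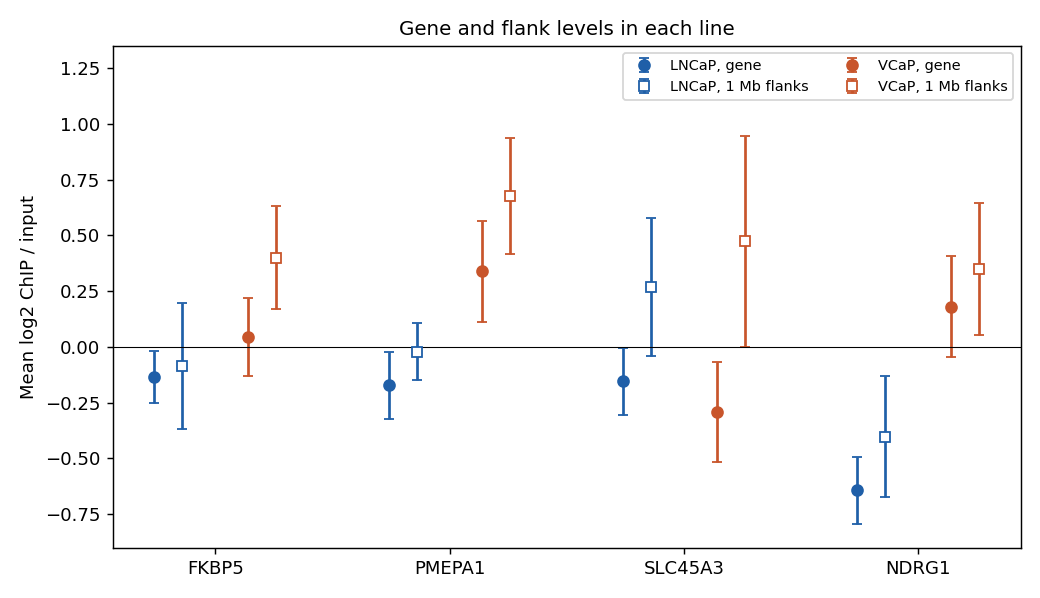
Mean log2 ratio of ChIP over input (vertical axis) over each gene (filled circles, bars are the noise SD of the mean) and over its flanks of 1 Mb on each side (open squares, bars are the SD over flank bins), in LNCaP (blue) and VCaP (orange). Every gene mean lies below the mean of its 1 Mb flanks in both lines (in LNCaP, FKBP5 does not with 2 Mb), and the deposited gap is widest for SLC45A3 in VCaP, at 0.77 (0.57 with the 3-entry mean undone, against 0.72 for PMEPA1 and 0.69 for NDRG1).

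The 5′ ends were then compared with their surroundings, a choice made after the profiles were seen. The mean of the 3 bins centred on the 5′ end was set against the mean of the bins 4 to 25 away on each side. This 3-bin mean is the deposited value of the next bin, so it needs no undoing. In VCaP it was -0.24 for PMEPA1, -0.40 for SLC45A3 and -0.36 for NDRG1, which lay 0.95, 0.93 and 0.75 below their surroundings. The 5′ end bin alone, with the mean undone, differed from them by -0.45, -0.48 and -0.58, so the neighbouring bins hold part of the dip. For PMEPA1, SLC45A3 and NDRG1 that bin, at 0.26, 0.05 and -0.20, was above both its neighbours. In LNCaP the 3-bin mean was -0.46 for PMEPA1, -0.17 for SLC45A3 and -0.78 for NDRG1, which lay 0.46, 0.44 and 0.40 below their surroundings. Over all bins of the series, 48.3% in LNCaP and 47.1% in VCaP lie below their surroundings by this measure.

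The depth of these dips was placed among all bins as a description. In VCaP the value at the 5′ end ranked at the 0.721 percentile for PMEPA1, the 0.822 percentile for SLC45A3 and the 2.20 percentile for NDRG1. In LNCaP the percentiles were 4.04, 4.48 and 6.17. FKBP5 did not show a dip at its outermost 5′ end. There the 3-bin mean was 0.37 in VCaP and 0.02 in LNCaP, which differed from the surroundings by -0.06 and 0.02. The second FKBP5 start, 39.7 kb further into the gene, was not compared with its surroundings. Centred on the next bin into the gene, the 3-bin mean was -0.04 in VCaP and -0.17 in LNCaP. The FKBP5 dip lay inside the gene. Within 240 kb of the 5′ end, the lowest value with the mean undone was in the bin from 35600001 to 35640000 in both lines. That bin lay 77 kb inside the gene, at -0.60 in VCaP and -0.62 in LNCaP.

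**Figure D4:**
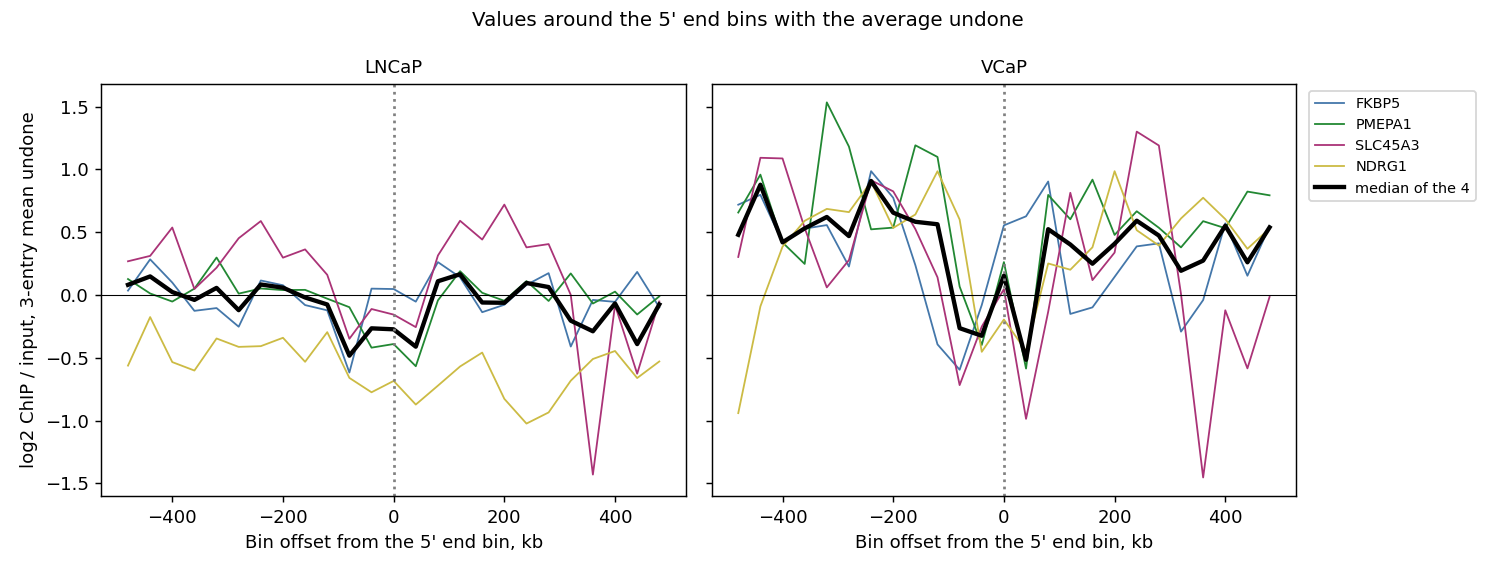
Log2 ratio of ChIP over input with the 3-entry mean undone (vertical axis), by offset in kb from the bin that holds the 5′ end of each gene, in LNCaP and VCaP. Offsets count each entry as 40 kb, so SLC45A3 points past its 80 kb entry at 320 kb lie further out than drawn. Coloured lines are the 4 genes and the black line is their median, which is lowest 80 kb below the 5′ end in LNCaP and 40 kb above it in VCaP; single bins have a noise SD of 0.18 in LNCaP and 0.27 in VCaP.

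The 5′ end bin of each of the 4 genes was outside the associated state in both lines, as are 38.4% of all common bins. In VCaP these bins lay in non-associated stretches of 4 bins (FKBP5), 3 (PMEPA1), 6 (SLC45A3) and 4 (NDRG1). Stretches of 6 bins or fewer, a limit taken from these genes, make up 28.5% of the 1202 non-associated stretches of VCaP and hold 2.08% of all its bins. The median non-associated stretch of VCaP has 13 bins.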

How the data were processed

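Lamin B1 ChIP and input libraries of LNCaP and VCaP were grouped by the labels, 1 library per group. The deposited log2 values are enrichment of ChIP over input per 40 kb bin, and the deposited state labels come from a hidden Markov model, per the file names. The build hg19 and the aligner STAR are named in the submitters' processing notes, and the scaling of ChIP to input, filters and smoothing are not given in the sources used here. Depth is unknown, so no counting interval was computed.

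Bins overlapping a window by at least 1 base were members. Noise is 1.4826 times the median absolute difference between bins 3 apart, divided by the square root of 2, and that of a difference adds the variances of both lines. A mean of several bins counts 1 separate value per 3 bins. With the mean undone, noise is taken from adjacent bins and every bin counts as a separate value. The undone noise SD of gene minus flank is that of the gene mean alone. Entries wider than 40 kb had a median absolute value of 0.21 in LNCaP and 0.33 in VCaP as deposited, and of 0.01 in both with a trailing mean of 3 entries undone. Undoing and noise were tested on simulated data.

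The 4 members are named by rule, with the 2 nearest protein-coding genes on each side by order in a RefSeq table of GRCh38.p14. The strand of NDRG1 is general knowledge. Members and measures were chosen with earlier results of these data known. The planned list of other androgen response genes and the genes of most similar level were not analysed, since that table is not of hg19. Python 3.11.15, numpy 2.4.6, pandas 2.3.3 and matplotlib 3.10.9 were used.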

Additional observations from a re-analysis of the deposited data

Results flagged for a closer look

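For 3 genes the mean log2 enrichment over the gene was below 0 in LNCaP and above 0 in VCaP. No test of this was possible with 1 library pair per line. VCaP minus LNCaP came to 0.51 for PMEPA1 (-0.17 in LNCaP and 0.34 in VCaP), 0.82 for NDRG1 (-0.64 and 0.18) and 0.18 for FKBP5 (-0.14 and 0.05). With the 3-entry mean undone the VCaP means of all 3 genes were below 0 as well, at -0.02 for PMEPA1, -0.32 for NDRG1 and -0.06 for FKBP5. For FKBP5 the VCaP mean was also below 0, at -0.13, in the deposited values when only bins at least 50% inside the gene were used.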

How the results depend on the processing

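Alternatives gave 108 values for 38 results, and none that was beyond noise changed sign. Among comparisons 58 values stayed close to the reported one and 18 moved, and among descriptions 23 stayed and 9 moved. Those counted as close include differences that fell or changed sign within their noise SD. With the mean undone, the difference between lines went from 0.51 to 0.28 for PMEPA1 and from -0.14 to 0.03 for SLC45A3. Undoing the 3-entry mean moved the NDRG1 difference between lines to 0.41, and the VCaP difference between gene and flank to -0.72 for PMEPA1 and -0.69 for NDRG1. Placing each value 1 bin lower gave 0.55 for the NDRG1 difference, and -0.70 and -0.56 for gene minus flank in VCaP. With 2 Mb of flank, NDRG1 in LNCaP lay at -0.41 against its flanks. Calling every bin with enrichment over 0 associated gave LNCaP 22 bins around FKBP5, 24 around PMEPA1 and 5 around NDRG1, in place of 0, and a running median of 5 bins over 0 gave 21, 23 and 3. So the absence of associated LNCaP bins holds for the authors' states and not for a threshold at 0. With 500 kb of flank, by its construction, fewer bins were associated: in VCaP 17 for FKBP5, 24 for PMEPA1, 16 for SLC45A3 and 20 for NDRG1, and in LNCaP 17 for SLC45A3. Noise taken from the differences themselves, chosen after seeing the data, raised the bins with VCaP higher beyond noise from 97 to 134. Centring the lines on their medians or quantile normalizing them moved none of the 4 gene-body differences between lines by more than its noise SD, and was not run for other results. No bin lies at least 50% inside SLC45A3, so that alternative gave no value for it. No paired analysis was possible because no group holds more than 1 library. The read depth is not known here, so only the noise of bins limits what a gene of 2 to 5 bins can show.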
